A study of Mus musculus with 2 samples.

Results

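The phagocyte NADPH oxidase was examined through 6 of its subunit genes, Cybb, Cyba, Ncf1, Ncf4, Rac1 and Rac2. They were represented by every probe set whose platform annotation names one of them alone, which gave 13 probe sets of 45037 that are not manufacturer's controls, and 6 genes of 18193. RNA came from c-Maf KO (c-Maf-/-) and wild type (c-Maf+/+) embryos of strain C57BL/6J at E15.5 (embryonic day), and 1 Affymetrix array was hybridised for each genotype. Cells of the fetal liver that stained for both Mac-1 (CD11b, encoded by Itgam) and F4/80 (encoded by Adgre1) were sorted as macrophages. Maf encodes the c-Maf protein, a leucine zipper factor that binds DNA, and the design asked which genes were lower without it. The knockout was carried by the whole embryo, and the labels do not say how many embryos gave each RNA.

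The oxidase carries electrons from NADPH in the cytosol across the phagosome membrane to oxygen, and the superoxide it makes serves the killing of engulfed microbes. Its membrane core is a heterodimer of NOX2 (gp91phox, encoded by Cybb), which holds the electron path, and p22phox (Cyba), which stabilises NOX2 and docks the cytosolic subunits. On activation the organiser p47phox (Ncf1) and the lipid-binding p40phox (Ncf4) move to the membrane together with a Rac GTPase. Rac2 is the form largely restricted to blood cells, and Rac1 is found in nearly all cells. Inherited loss of the membrane or cytosolic subunits in humans causes chronic granulomatous disease. A further cytosolic subunit was not analysed here.

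With 1 array per genotype there was no replicate and hence no test, and each value describes these 2 arrays. The number of arrays limits the precision. The KO array was dimmer: the median deposited intensity was 2.98 on the KO array and 4.73 on the wild type array. Among 9237 genes above a floor of 3.70 on both arrays (the median of all values), the median log2 ratio of KO over wild type was -0.93. Ratios are therefore given after quantile normalization, which sets both arrays to one distribution of signals, and are called level-adjusted. On that scale the floor was 3.75 and the median over all genes was 0.01. Among 18 hybridisation control probe sets the median log2 ratio was 0.24 (SD 0.087 across probe sets), so the dimming was not shared by them. The 3' to 5' signal ratio of Actb was 6.05 on the KO array and 13.3 on the wild type array, and that of Gapdh was 0.90 on the KO array and 1.83 on the wild type array. The log2 ratio of a gene could therefore depend on where its probes lie, which was not tested for the oxidase genes.

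By its brighter probe sets, the targeted gene was lower on the KO array. The brightest Maf probe set read 0.219 on the KO array and 47.6 on the wild type array, at least 8.51-fold lower after level adjustment and at least 12.9-fold lower as deposited. The labels do not say which stretch of Maf was deleted, so its probes may lie outside it.

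Of the 13 oxidase probe sets, 12 were above the floor on both arrays. The exception, Rac1 probe set 1437674_at, read 2.94 on the KO array and 2.71 on the wild type array and was not used for ratios. In deposited intensity 11 of the 12 were lower on the KO array, where 82.6% of all 28343 measured probe sets were lower, so this count follows the dimming of the whole array. After level adjustment 0 of the 12 were at least 2-fold lower and 1 was at least 2-fold higher, against 9.01% lower and 8.41% higher among all 27756 measured probe sets. The other 11 were within 2-fold. As deposited, 2 were at least 2-fold lower and 0 higher, against a background of 35.1% lower and 1.2% higher. Over the 6 genes, each by its brightest probe set, the median level-adjusted log2 ratio was 0.33, against 0.01 over all genes, and with equal medians it was -0.18, against -0.23. As deposited it was -0.84 for the 6 genes and -0.79 over all genes. The latter includes genes below the floor on 1 array, and among genes above it on both arrays, as the 6 are, the median was -0.93. No oxidase subunit gene was thus 2-fold lower on the KO array after level adjustment, though Cybb 1436778_at was at -1.14 when the arrays were set to equal medians.

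**Figure D1:**
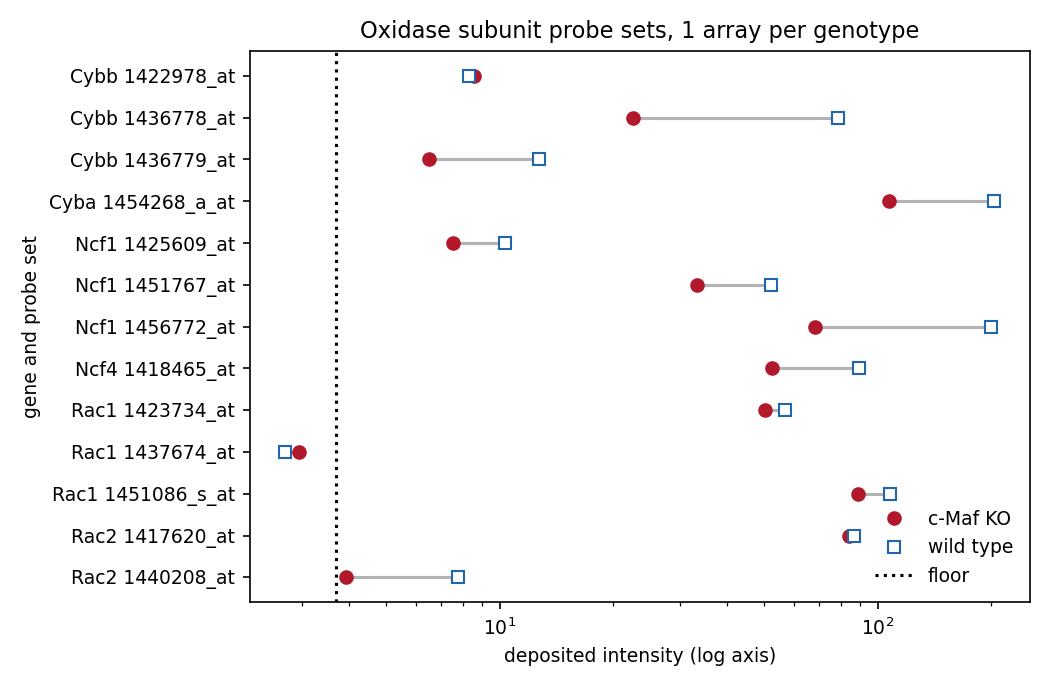
Deposited intensity (log axis) of the 13 oxidase subunit probe sets. Filled circles are the c-Maf KO array, open squares the wild type array, grey lines join the values of a probe set and the dotted line is the floor of 3.70. The Rac1 and Rac2 probe sets with intensities between 50.3 and 108 lie close together on both arrays, whereas Cybb 1436778_at and Ncf1 1456772_at are far apart.

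Among the membrane subunits, Cybb gave 3 readings that did not go together. Probe set 1436778_at read 22.5 on the KO array and 78.5 on the wild type array, a log2 ratio of -1.80 as deposited and -0.65 after level adjustment. Probe set 1436779_at read 6.52 on the KO array and 12.7 on the wild type array, with a level-adjusted ratio of -0.08. Probe set 1422978_at read 8.53 on the KO array and 8.28 on the wild type array, with a level-adjusted ratio of 0.92. The annotation ties 1436778_at and 1436779_at to a single expressed sequence tag and 1422978_at to the RefSeq transcript. The 3 ratios span 1.57 log2 units, and the mean over them was 0.07.

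That span can be set against the differences between probe sets of the same gene elsewhere on these arrays. For 2837 pairs from 1423 genes with a mean intensity of at least 14.8, the median difference was 0.59 and the SD of a single probe set was 0.64, and 7.90% of pairs were at least as far apart as the Cybb extremes, which are the ends of 3 values and so lie further apart than a pair taken without choice. All of these pairs were read on the same 2 arrays, so this SD holds no variation between embryos or between hybridisations. No single direction for Cybb was therefore given by its probe sets.

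Cyba, the partner that stabilises NOX2, has 1 probe set. It read 108 on the KO array and 204 on the wild type array, a log2 ratio of -0.92 as deposited and 0.26 after level adjustment. The fall in deposited intensity was close to that of the median gene but smaller than that of probe sets of like intensity (median log2 ratio -1.21). Of all measured probe sets, 63.6% had a lower level-adjusted ratio. With equal medians in place of quantile normalization the Cyba ratio was -0.25, so its sign rested on the scaling.

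The cytosolic subunits stayed within 2-fold after level adjustment. Ncf1 probe set 1456772_at read 68.3 on the KO array and 199.6 on the wild type array, with log2 ratios of -1.55 as deposited and -0.36 after level adjustment. Probe set 1451767_at read 33.2 on the KO array and 52.2 on the wild type array, with a level-adjusted ratio of 0.51. Probe set 1425609_at read 7.54 on the KO array and 10.3 on the wild type array, with a level-adjusted ratio of 0.43. The last 2, which the annotation ties to the same sequence, lay close together, and the first, from another sequence, lay 0.87 log2 units below the highest of the 3. Of the same-gene pairs above, 33.0% were at least that far apart, again beside the ends of 3 values.

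Ncf4, whose p40phox product binds the phagosomal lipid phosphatidylinositol 3-phosphate, read 52.4 on the KO array and 89.3 on the wild type array. Its log2 ratio was -0.77 as deposited, 0.40 after level adjustment and -0.10 with equal medians. Like Cyba it was dimmer on the KO array by about as much as the median gene. It was dimmed less than probe sets of like intensity, whose median deposited log2 ratio was -1.15.

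By their brightest probe sets, the Rac GTPases had the highest ratios of the 6 genes. The brighter Rac2 probe set, 1417620_at, read 84.2 on the KO array and 86.8 on the wild type array, which is nearly the same deposited intensity on an array that was dimmer as a whole. Its level-adjusted log2 ratio was 1.13, a 2.19-fold higher value on the KO array, whereas it was -0.043 as deposited and -0.28 when the arrays were scaled to the hybridisation controls. Of all measured probe sets, 94.1% had a lower level-adjusted ratio. The dimmer Rac2 probe set, 1440208_at, close to the floor, read 3.93 on the KO array and 7.75 on the wild type array and had a level-adjusted ratio of -0.25. The annotation ties the brighter one to the RefSeq transcript and the dimmer one to an expressed sequence tag. The 2 lay 1.38 log2 units apart, a distance that 12.5% of same-gene pairs reached, and 14.5% without the intensity limit. After level adjustment they thus gave no single direction for Rac2.

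For Rac1 both measured probe sets gave like ratios. Probe set 1423734_at read 50.3 on the KO array and 57.0 on the wild type array, with log2 ratios of -0.18 as deposited and 0.98 after level adjustment. Probe set 1451086_s_at read 89.0 on the KO array and 108 on the wild type array, with log2 ratios of -0.28 as deposited and 0.88 after level adjustment. They differ by 0.10 log2 units, less than 90.2% of same-gene pairs, but both are tied to the same sequence, so they are not independent readings of Rac1. The suffix of the last marks probes that can also match other transcripts.

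**Figure D2:**
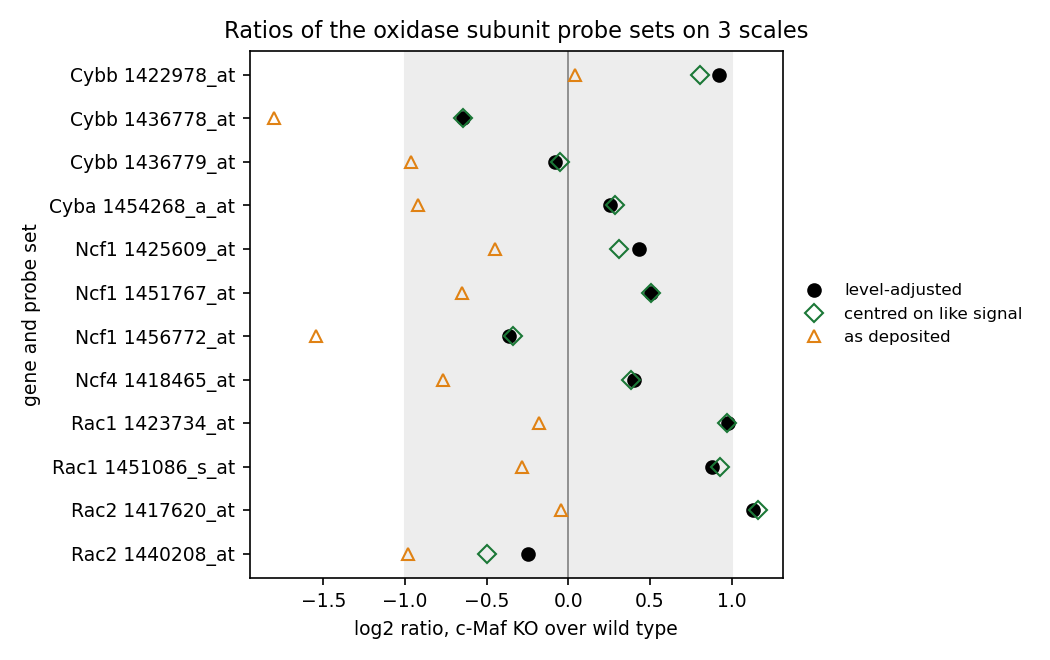
Log2 ratio of c-Maf KO over wild type for the 12 measured oxidase probe sets on 3 scales: level-adjusted (filled circles), centred on probe sets of like signal (diamonds) and as deposited (triangles). The grey band covers ratios within 2-fold. The level-adjusted ratio of Rac2 1417620_at (1.13) lies outside the band and the other 11 lie within it, and the deposited ratios lie to the left throughout.

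The ratios of the 6 genes, each by its brightest probe set, ran from Rac2 (1.13) through Rac1 (0.88), Ncf4 (0.40), Cyba (0.26) and Ncf1 (-0.36) to Cybb (-0.65). This order was the same under the 6 scalings compared. Of these scalings, 4 differ from each other by one amount for every gene above the floor and so cannot differ in order. The others shifted these 6 probe sets nearly alike, between -1.15 and -1.21 on the like-signal scale, so they could hardly alter the order. Over the scalings Rac2 lay between 1.76 and 1.81 log2 units above Cybb in its KO over wild type ratio. They are the highest and lowest of the 6, so this distance was fixed by the ranking and has no yardstick here. Rac1 lay 0.48 above Ncf4, the next gene down, a distance that 58.1% of same-gene pairs reached, so these neighbours did not differ beyond the spread between probe sets. The order also depends on which probe set stands for a gene: by the mean over its measured probe sets Cybb was at 0.07, Ncf1 at 0.19, Rac2 at 0.44 and Rac1 at 0.93.

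The shift of the KO array depended on signal, so each ratio was also set against probe sets of like intensity, in 20 bins. On this scale Rac2 1417620_at was at 1.16, Rac1 at 0.97 and 0.93, and Cybb 1436778_at at -0.65. Within its own bin of 832 probe sets, Rac2 1417620_at had a higher ratio than 94.5% and Cybb 1436778_at a higher ratio than 15.9%. The dimmer Rac2 probe set, 1440208_at, was at -0.50 and had a higher ratio than 14.2% of its bin. In all, 8 of the 12 oxidase probe sets lay above the median of their bin and 4 below it.

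**Figure D3:**
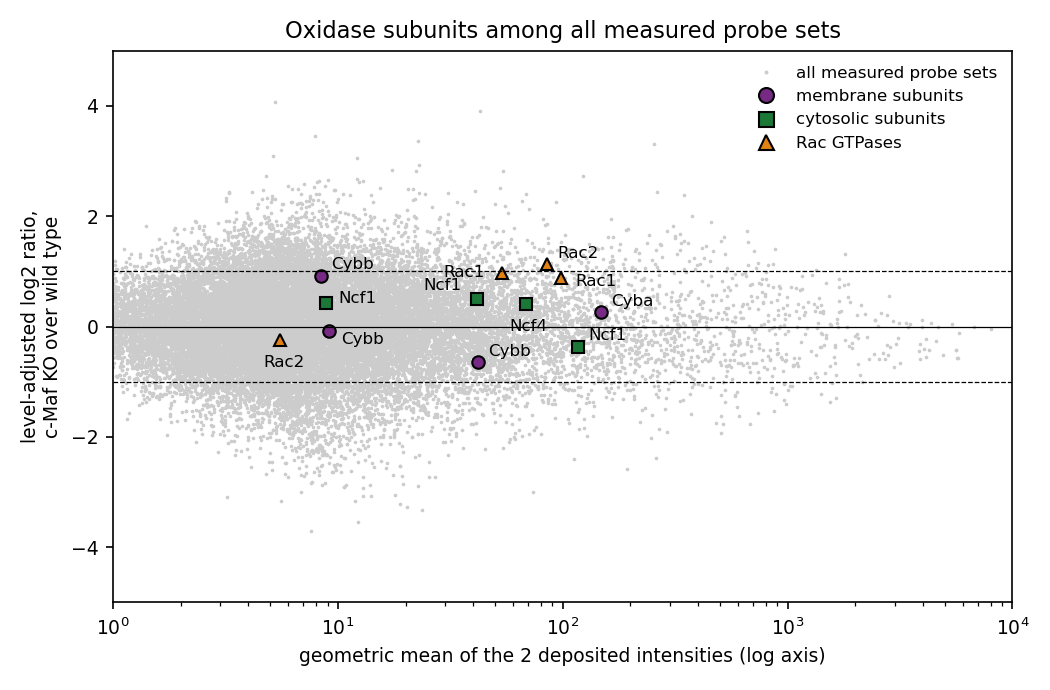
Level-adjusted log2 ratio of c-Maf KO over wild type against the geometric mean of both deposited intensities (log axis) for all 27756 measured probe sets (grey; the axes leave out the few outside their limits), with the 12 oxidase probe sets marked by role. Dashed lines are 2-fold. The Rac GTPases with intensities above 50 sit near the upper dashed line, and the membrane and cytosolic subunits scatter between the lines.

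The RefSeq promoter table (GRCm38.p6) held 3 of the 6 genes, Cybb, Cyba and Ncf1, each as 250 bases before and 50 after the start of transcription. Each was searched on both strands for TGCTGAC, a half-site recognised by Maf proteins, and for GAGGAAGT, a site of PU.1, the myeloid factor encoded by Spi1. None of the 3 windows held either, against 4.67% and 3.20% of all 32851 promoters. After that search, GAGGAA, the core shared by sites of the ETS family to which PU.1 belongs, and CCAAT, a common promoter box, were added. The core is part of GAGGAAGT. Both were found in the Cybb window and neither in the other 2, where 28.3% of all promoters held the core and 37.4% the box. The Cybb window is shown because binding of PU.1 and interferon regulatory factors to the promoter of this gene is well known in human myeloid cells. It covers chrX:9469275-9469574 on the minus strand and is written 5′ to 3′, with capitals marking the CCAAT box (from base 195) and the core read on the opposite strand (from base 260).
Cybb: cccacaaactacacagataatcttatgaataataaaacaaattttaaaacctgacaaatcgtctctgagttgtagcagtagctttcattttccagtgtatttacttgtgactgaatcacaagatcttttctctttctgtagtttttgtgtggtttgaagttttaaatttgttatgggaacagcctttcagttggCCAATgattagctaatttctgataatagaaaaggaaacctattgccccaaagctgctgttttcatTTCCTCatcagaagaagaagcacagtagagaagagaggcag
A match of letters is a description of the window, and no match says only that the letters are not in it.

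Transcription factors known to act on oxidase genes were listed as a set of 10, of which 8 were measured. By level-adjusted ratio of the brightest probe set 3 were at least 2-fold lower and 0 higher, against 9.05% lower and 8.35% higher among all 13289 measured genes, and the median was -0.17. Cebpb read 24.2 on the KO array and 207.9 on the wild type array (-1.94). Its other, dimmer probe set read 9.62 on the KO array and 8.52 on the wild type array and was at 1.07. Elf1, an ETS factor, read 7.67 on the KO array and 43.7 on the wild type array (-1.46), with its other probe set at 0.26. Irf8, an interferon regulatory factor of monocytes and macrophages, read 26.5 on the KO array and 128.7 on the wild type array (-1.11), and its other probe set was at -0.24. Hoxa9 was at -0.36. Spi1, picked after its value was seen, read 22.7 on the KO array and 47.7 on the wild type array (0.08), and so was dimmer by about as much as the array. In each of the 3 lower genes the other probe set was thus not 2-fold lower.

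Partners and activators of the oxidase were mostly within 2-fold. Of 12 measured of 15 listed, 1 was lower and 1 higher, which is near the 9.05% lower and 8.35% higher among all genes, and the median was 0.18. The lower one was Hvcn1, the proton channel that balances the charge moved by the oxidase. Its only probe set read 2.84 on the KO array, below the floor, and 26.1 on the wild type array, which is at least 4.82-fold lower after level adjustment and at least 7.06-fold lower as deposited. The higher one was Pik3c3, the kinase that makes the lipid bound by p40phox, at 7.18 on the KO array and 6.09 on the wild type array (1.05). As deposited its log2 ratio was 0.24, and both intensities are near the floor. When genes above the floor on both arrays were split by signal, the dimmest group had a level-adjusted median of 0.40. Of the phosphoinositide 3-kinase catalytic subunits, Pik3cd was at 0.84 and Pik3cg at -0.79, each with a second measured probe set of the opposite sign (-0.34 and 0.18).

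Regulators of Rac, which load it with GTP, speed GTP hydrolysis or hold it in the cytosol, had ratios on both sides of 0. Of 12 measured of 13 listed, 2 were at least 2-fold lower and 0 higher, against 9.05% lower and 8.35% higher among all genes, with a median of -0.69. As deposited the median was -1.62, below the -0.79 of all genes. The exchange factor Dock2 read 4.68 on the KO array and 88.2 on the wild type array by its brightest probe set (-3.27). Its other probe sets were at -0.20 and, dim, at 0.66, so the size of the Dock2 change is uncertain. The dim one read 4.56 on the KO array and 0.48, below the floor, on the wild type array. Elmo1, which pairs with Dock proteins, read 5.65 on the KO array and 21.5 on the wild type array, 2.01-fold lower after level adjustment. Tiam2 was at -0.90 and Bcr, which acts on Rac through its GTPase-activating domain, at -0.76, with further Bcr probe sets at -1.04 and, dim, at 0.48. Vav1, the exchange factor of blood cells, was picked after its values were seen: its probe sets read 13.3 and 7.94 on the KO array and 46.4 and 45.9 on the wild type array, with ratios of -0.69 and -1.47.

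Other genes of the NADPH oxidase family were within 2-fold or below the floor, and all but Cybc1 were dim. Of 10 listed, 6 had a probe set and 4 were measured, none of them 2-fold changed, and the median was 0.03. Cybc1, a chaperone needed for the NOX2 and p22phox heterodimer, read 20.5 on the KO array and 63.6 on the wild type array (-0.47) by its brightest probe set, and a dim one was at 0.60. Noxo1 (0.39), Duox1 (0.21) and Duoxa2 (-0.15) did not exceed an intensity of 6.73 on either array. Nox4 and Duoxa1 were below the floor on both.

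**Figure D4:**
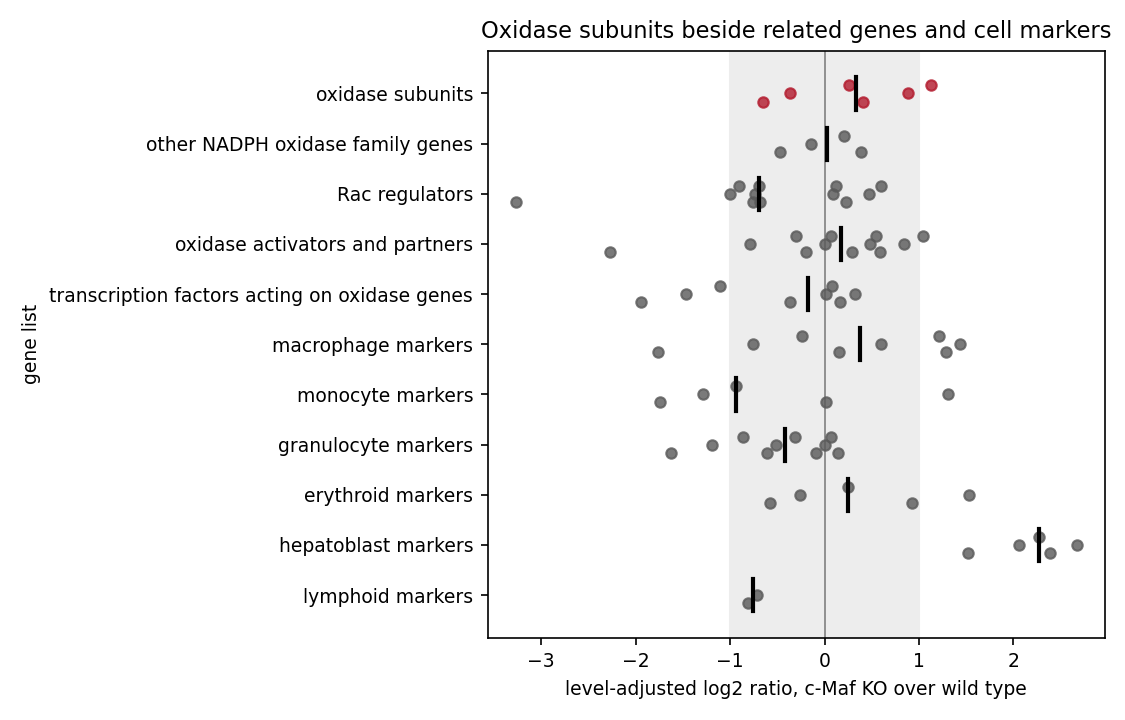
Level-adjusted log2 ratio of c-Maf KO over wild type for each measured gene, by its brightest probe set, in the oxidase subunits (red) and in lists of related genes and cell markers (grey). Vertical bars are list medians and the grey band covers ratios within 2-fold. The oxidase subunits (median 0.33) lie near the macrophage markers (0.38), the erythroid markers (0.24) and the oxidase activators and partners (0.18). The granulocyte markers (-0.42), Rac regulators (-0.69), lymphoid markers (-0.76) and monocyte markers (-0.94) lie lower. The hepatoblast markers lie higher (2.27).

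The oxidase genes are expressed in granulocytes and monocytes as well as in macrophages, and markers of those cells were on both arrays. Their counts of 2-fold changes stand against 9.05% lower and 8.35% higher among all genes. The summed deposited intensities below hold the dimming of the whole KO array, and some lean on few genes. Csf1r gave 248 on the KO array and 625 on the wild type array of the macrophage sum. Hbb-y gave 4650 on the KO array and 7061 on the wild type array of the erythroid sum. S100a8 and S100a9 gave most of the granulocyte sum on both arrays. Of 10 granulocyte markers, all measured, 2 were at least 2-fold lower and 0 higher, and their summed deposited intensity was 8646 on the KO array and 15003 on the wild type array. S100a8 and S100a9, which also bind the oxidase, were at 0.00 and 0.07. Of 5 monocyte markers measured of 6 listed, 2 were lower and 1 higher, with sums of 1043 on the KO array and 2718 on the wild type array. Of 8 macrophage markers, 1 was lower and 3 higher, with sums of 351 on the KO array and 777 on the wild type array. The sort marker Adgre1 read 48.1 on the KO array and 71.4 on the wild type array, and Itgam read 3.94 on the KO array and 5.76 on the wild type array, just above the floor. All 5 hepatoblast markers were higher, with sums of 528 on the KO array and 330 on the wild type array, and of 5 erythroid markers 0 were lower and 1 higher, with sums of 4896 on the KO array and 7478 on the wild type array. For lymphoid cells, which also express Rac2, 2 of 6 listed markers were measured, sums were 10.4 on the KO array and 41.8 on the wild type array, and Cd3e and Cd2 were below the floor on both arrays. The part of these cells in the oxidase ratios was not tested, and in a sorted bulk sample fewer cells of a type and less RNA per cell cannot be told apart.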

How the data were processed

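The deposited table holds 1 linear intensity per probe set and array, from 0.0203 to 10606. The authors' summary and scaling of these intensities are not given in the sources used here. Per the labels' protocols, biotin-labelled total RNA was hybridised by the Affymetrix procedure. Of 45101 probe sets, 64 were controls; of the rest 34945 had 1 gene symbol in the platform annotation, 932 several and 9160 none. Entrez identifiers updated the symbols of 34754 from the RefSeq table of GRCm38.p6. Signals were quantile normalized on the log2 scale, floored at their 50th percentile, and expressed as log2 ratios of c-Maf KO over wild type (Python 3.11.15, numpy 2.4.6, pandas 2.3.3). A probe set counts as measured where either array reached the floor. The probe set of highest mean deposited intensity stood for a gene, and a ratio with 1 array below the floor is a bound. Called means at least 2-fold. The calculation was tested on simulated data with the same shift for every probe set and changes only in bright ones. The dependence of the real shift on signal was not simulated. From each list of related genes, up to 4 members with the largest absolute ratio were named, and 1 further list is not reported here. Members and lists were chosen with earlier results of these data known. Alternatives were other scalings, floors, probe set filters and fold thresholds.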

Additional observations from a re-analysis of the deposited data

How the results depend on the processing

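The scaling decided the counts of changed oxidase probe sets. At least 2-fold lower were 0 after quantile normalization, 2 as deposited, 1 with equal medians and 6 with the hybridisation controls as reference. Each count is out of 12. Over all measured probe sets 2502 of 27756, 9954 of 28343, 4063 of 27757 and 12597 of 28804 were lower, in that order. The oxidase count was also 0 centred on the median probe set and 0 centred on like signal. There 2370 and 3453 of 28343 were lower. The oxidase count thus rose with the count of the whole array. At least 2-fold higher was 1 after quantile normalization and 0 as deposited, with equal medians, centred on the median probe set or with the hybridisation controls. Among all measured probe sets 2334 of 27756, 340 of 28343, 1367 of 27757, 3568 of 28343 and 203 of 28804 were higher, in that order. With thresholds of 1.5-fold and 3-fold the counts were 1 and 0 lower, and 4 and 0 higher. The shares over all probe sets at these thresholds were not computed, so these counts have no background. The median ratio over the 6 genes was 0.33, against -0.84 as deposited, -1.09 with the hybridisation controls, -0.18 with equal medians and -0.0025 centred on the median probe set, so its sign rested on the scaling. The median over all genes was -0.23 with equal medians, 0.05 centred on the median probe set and -0.13 centred on like signal. Rac2 1417620_at changed sign, to -0.043 as deposited and -0.28 with the hybridisation controls. This was not particular to Rac2. With the hybridisation controls every measured oxidase probe set was below 0, and as deposited all but Cybb 1422978_at (0.04) were. Of 117 values of single probe sets under the alternatives, 93 moved by less than 0.64, the SD between probe sets of a gene. Another 22 moved by more, all under the same pair of scalings, and the 2 Rac2 values above, which also moved by more, make up the rest. The 93 include values that could not move, because the 12 measured probe sets were above the floor on both arrays. These are the values with floors at the 25th (12) and 65th percentile (11), without suffixed probe sets (10) and above the floor on both arrays (12). The share of 93 in 117 is therefore no measure of robustness. Over all probe sets 2502 were lower and 2334 higher (51.7% of changed probe sets lower). The counts were 9954 and 340 as deposited (96.7%), 4063 and 1367 with equal medians (74.8%), 2370 and 3568 centred on the median (39.9%), 3453 and 1582 centred on like signal (68.6%), and 12597 and 203 with the hybridisation controls (98.4%). They were 8015 and 7915 with a floor at the 25th percentile, 1363 and 1199 at the 65th, and 1417 and 1402 above the floor on both arrays. No paired analysis was possible because each genotype has 1 array. Signal over background limits Rac2 1440208_at, Rac1 1437674_at and the dim Cybb probe sets.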
